A study of Homo sapiens with 4 samples.

Results

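The genes described here are the guidance receptor gene ROBO2, its ligand gene SLIT2, the heparan sulfate proteoglycan gene GPC1, the neural adhesion gene LSAMP, the secreted WNT gene WNT5A and the neuronal trafficking paralogs NSG1 and NSG2. They were selected by name from a deposited table of 1232 genes, and all 7 were found in it. The names were put forward because of their values in this table, so every comparison of PHF19-overexpressing with empty vector cells below describes these genes and does not test them. RNA was sequenced from AMO1, an established human multiple myeloma line, after lentiviral transduction with the PCDH vector. Of its 4 libraries, 2 are of cells with the empty vector (EV1 and EV2, the EV group) and 2 of cells with PHF19 overexpression (the PHF19_OE group), PHF19 being a Polycomb-like partner of the H3K27 methyltransferase complex PRC2. The labels name no clone, no second agent and no separate cultures, so the spread between 2 libraries may be technical.

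SLIT proteins are secreted guidance cues that bind ROBO receptors on growing axons and migrating cells, and heparan sulfate chains such as those on glypicans take part in this binding. WNT5A is a secreted ligand that mainly signals without beta-catenin, through receptors that include ROR and Frizzled proteins, and guides cell polarity and movement. LSAMP belongs to the IgLON family of lipid-anchored immunoglobulin-like adhesion molecules of neurons, and NSG1 and NSG2 are small membrane proteins of neuronal endosomes. Plasma cells, from which myeloma arises, are not a usual site of this set of neuronal genes.

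ROBO2, GPC1, LSAMP, WNT5A and NSG1 were higher in both PHF19_OE libraries than in both EV libraries, while NSG2 and SLIT2 were lower in mean. In means of normalized counts (reads divided by the authors' size factor for each library) the difference was 8.24-fold for WNT5A, 14.8-fold for GPC1 and 44.4-fold for LSAMP. ROBO2 and NSG1 had at most 1 read in an EV library, and their ratios of pooled counts are given below. The authors' deposited adjusted p was under 0.05 for 6 of the 7, and SLIT2 was the exception. Among the listed genes 23.8% passed that threshold, 9.09% as higher and 14.7% as lower genes. Over the 16881 genes behind the authors' adjustment 1.74% passed, 0.663% as higher and 1.07% as lower genes. Listing required an unadjusted p under 0.05, which 7.16% of the 16881 had. EV and PHF19_OE values were fully separate for 6 of the 7 genes, 5 of them higher. The same was true of 90.5% of the listed genes (36.2% as higher genes), a share that selection on this contrast raises. Refitted among the 1066 listed genes with enough reads, edgeR's quasi-likelihood test called 4 of the 7 at a Benjamini-Hochberg adjusted p under 0.05, against 14.0% of the genes tested (7.22% as higher genes). It called ROBO2, GPC1, LSAMP and NSG1, but not WNT5A, NSG2 or SLIT2. DESeq2 on the same counts called 6 of the 7, all but SLIT2, against 364 of the 1066 genes tested. Adjusted over 16881 genes, edgeR called 0 genes and DESeq2 131. Both refits use the same libraries and genes already selected on this contrast, so they are no separate check. By the authors' deposited adjusted p, the last gene inside the threshold stood at 0.0498 and the first outside it at 0.0506.

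The library totals behind the deposited FPKM ranged from 23835805 to 35258920 reads. PHF19 itself had normalized counts of 1842 and 4506 in EV and of 9670 and 8777 in PHF19_OE, so the groups did not overlap. In means it was 2.91-fold higher in PHF19_OE, 5.01-fold from EV1 alone and 2.05-fold from EV2 alone. The authors' deposited adjusted p for PHF19 was 0.0897, so it did not pass the threshold applied to the other genes. Its count does not separate vector from endogenous transcripts. Gaps of over 2-fold separated EV1 from EV2 in 54.1% of the listed genes and the PHF19_OE libraries from each other in 19.4%, with 1 added to each normalized count. EV1 exceeded EV2 by such a gap in 460 of the 784 genes that were lower in PHF19_OE and in 40 of the 448 that were higher. Of 11 plasma cell markers, POU2AF1, CD38 and CD79A were listed and 8 were not. The summed normalized counts of the 3 were 21950 and 15571 in EV and 8389 and 8400 in PHF19_OE. POU2AF1 made up most of this sum, at 18511 and 13367 in EV and 7486 and 7735 in PHF19_OE. It did not pass (authors' deposited adjusted p 0.178), whereas CD38 and CD79A did. None of the 3 was at 0 in any library, although CD79A was at 1.2 and 4.09 in PHF19_OE. Their part in the results below was not tested.

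**Figure D1:**
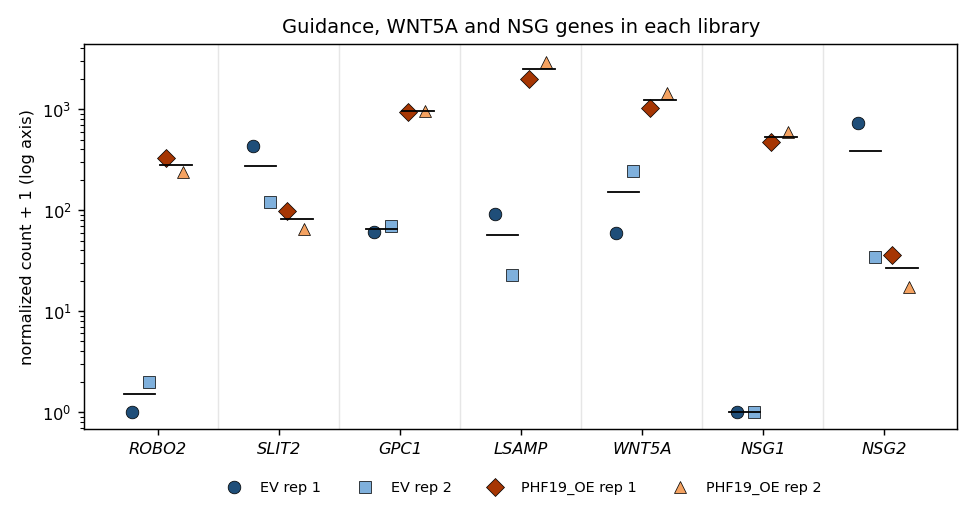
Normalized count plus 1 on a log axis (vertical) for the 7 genes (horizontal) in the 2 EV and 2 PHF19_OE libraries, with horizontal lines at the group means plus 1. The PHF19_OE points of ROBO2, GPC1, LSAMP, WNT5A and NSG1 lie above both EV points, whereas for SLIT2 and NSG2 only EV1 lies far from the other libraries.

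ROBO2, the receptor, was almost without reads in EV cells and clearly counted in PHF19_OE cells. EV1 had 0 reads of ROBO2, EV2 had 1, and the PHF19_OE libraries had 272 and 230. Both overexpressing libraries were high and both EV libraries were at or next to 0. The gene (ENSG00000185008) spans 1743 kb of chromosome 3 (75906695 to 77649964, plus strand, hg38), and its normalized counts were 327 and 235 in PHF19_OE. The ratio of pooled counts was 634, with an exact 95% interval of 113 to 25091 that covers counting error only, as do all intervals and floors here. The authors' deposited log2 fold change of 9.32 ranked 6 among the 448 higher genes, with an adjusted p of 4.55e-07.

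SLIT2, the ligand (ENSG00000145147, chromosome 4, 20253260 to 20620561, plus strand), showed the opposite order, but most of the difference came from one EV library. Its normalized counts were 428 and 120 in the EV libraries and 96.1 and 64.5 in the PHF19_OE libraries. EV1 was high and the other 3 libraries lay close together, with the groups just apart. In means the EV level was 3.41-fold above the PHF19_OE level, 274 ± 217 against 80.3 ± 22.4 (SD, n = 2 each). Against EV2 alone this fold was 1.5, and against EV1 alone it was 5.33. Within EV, replicate 1 exceeded replicate 2 by 3.56-fold (95% interval 2.92 to 4.36), and 22.7% of the listed genes had a gap that wide or wider in that direction. The authors' deposited adjusted p for SLIT2 was 0.334. In these bulk libraries, fewer cells with a transcript and less transcript per cell cannot be told apart.

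Receptor and ligand are compared per length within a library as FPKM (fragments scaled to gene length and to the library total). In EV1 SLIT2 stood at 1.58 FPKM with ROBO2 at 0, which puts the ligand at least 309-fold above the receptor with a floor of 3 counts in that library. In EV2 SLIT2 stood at 0.430 FPKM and ROBO2 at 0.00204, the latter from a single read, a ratio of 211 (95% interval 37.2 to 8402). In PHF19_OE replicate 1 the receptor was the higher gene, 0.685 against 0.346 FPKM, 1.98-fold (1.54 to 2.58). In PHF19_OE replicate 2 it was 0.490 against 0.230 FPKM, 2.13-fold (1.60 to 2.86). The order of the pair therefore differed between the groups in every library, while reads of the ligand were present in all 4 libraries. Both genes stayed under 2 FPKM throughout.

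**Figure D2:**
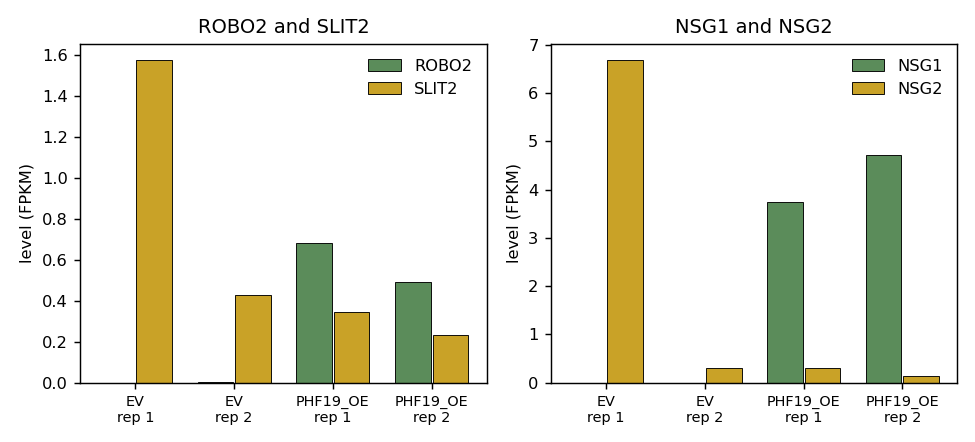
Level in FPKM (vertical, from 0) of ROBO2 and SLIT2 (left) and of NSG1 and NSG2 (right) in each of the 4 libraries (horizontal), 1 bar for each gene and library. The ligand SLIT2 and the paralog NSG2 are the taller bars in both EV libraries, and ROBO2 and NSG1 are the taller bars in both PHF19_OE libraries.

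RefSeq gives ROBO2 more than one start, and the promoter windows (250 bases before to 50 after a start, GRCh38.p14) of the receptor and the ligand are shown because the genes went in opposite directions. The files do not say which start was used. CG pairs, the sites of DNA methylation, are in capitals, counted on one strand since the pair reads the same on both. ROBO2 window 1 (chr3:76310630-76310929, plus strand) holds 7 CG pairs, and 63.2% of all 35116 windows hold as many or more. ROBO2 window 2 (chr3:77039849-77040148, plus strand) holds 31, which 20.7% of windows reach. The SLIT2 window (chr4:20251655-20251954, plus strand) holds 36, which 12.7% reach, and its start lies upstream of the gene start given in the deposited table. At least 1 CG pair is present in 96.0% of windows, and the median is 14.
ROBO2 window 1: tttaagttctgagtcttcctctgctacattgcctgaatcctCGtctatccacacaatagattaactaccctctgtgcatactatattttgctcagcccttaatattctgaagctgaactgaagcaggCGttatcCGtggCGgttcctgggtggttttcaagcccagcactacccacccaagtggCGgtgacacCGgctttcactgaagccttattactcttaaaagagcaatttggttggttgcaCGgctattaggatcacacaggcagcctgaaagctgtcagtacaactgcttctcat
ROBO2 window 2: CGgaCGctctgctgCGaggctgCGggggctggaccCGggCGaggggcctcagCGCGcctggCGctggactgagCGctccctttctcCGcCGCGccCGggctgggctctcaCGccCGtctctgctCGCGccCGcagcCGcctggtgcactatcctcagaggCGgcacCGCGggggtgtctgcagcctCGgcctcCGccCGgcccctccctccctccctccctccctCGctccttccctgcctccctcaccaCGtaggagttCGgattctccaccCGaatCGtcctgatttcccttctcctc
SLIT2 window: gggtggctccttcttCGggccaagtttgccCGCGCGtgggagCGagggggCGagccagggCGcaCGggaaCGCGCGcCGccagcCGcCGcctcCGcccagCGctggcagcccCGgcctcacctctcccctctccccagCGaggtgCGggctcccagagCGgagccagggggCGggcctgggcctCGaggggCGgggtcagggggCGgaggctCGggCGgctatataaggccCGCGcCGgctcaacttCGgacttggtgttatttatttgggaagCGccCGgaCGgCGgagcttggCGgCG

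GPC1, a glypican that carries heparan sulfate at the cell surface (ENSG00000063660, chromosome 2, 240435671 to 240468078, plus strand), was the most even of the 7 genes between the PHF19_OE libraries. Its normalized counts were 60.2 and 68.4 in the EV libraries and 948 and 955 in the PHF19_OE libraries. The groups lay far apart, with the lowest PHF19_OE library 13.9-fold above the highest EV library. The mean rose from 64.3 ± 5.83 to 951 ± 4.73 (SD, n = 2 each), 14.8-fold. The authors' deposited adjusted p of 6.20e-16 ranked 6 among all listed genes. Each EV library alone gave nearly the same fold, 15.8 with EV1 and 13.9 with EV2. Against ROBO2, per length, GPC1 was 7.42-fold higher in PHF19_OE replicate 1 (95% interval 6.45 to 8.55) and 10.4-fold higher in PHF19_OE replicate 2 (8.97 to 12.0).

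LSAMP, the IgLON adhesion gene, reached the highest level of the 7 genes in overexpressing cells. Its normalized counts were 90.3 and 21.5 in the EV libraries and 1996 and 2972 in the PHF19_OE libraries. The lower PHF19_OE library lay 22.1-fold above the higher EV library. The mean was 55.9 ± 48.6 in EV and 2484 ± 690 in PHF19_OE (SD, n = 2 each), a 44.4-fold difference. The fold was 27.5 with EV1 as the only control and 115 with EV2. The EV libraries differed 4.20-fold (95% interval 2.64 to 6.96) and the PHF19_OE libraries 1.49-fold (1.40 to 1.58, replicate 2 above replicate 1). LSAMP (ENSG00000185565) spans 1337 kb of chromosome 3 (115802363 to 117139389, minus strand). The authors' deposited adjusted p was 2.62e-15.

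The promoter windows of these genes, with CG pairs again in capitals, differ widely although both genes were higher in the same libraries. The GPC1 window (chr2:240435413-240435712, plus strand) holds 45 CG pairs, a number that 3.48% of all windows reach. The LSAMP window (chr3:116445438-116445737, minus strand) holds 8, which 60.7% reach, and its start lies 694 kb inside the deposited gene body.
GPC1 window: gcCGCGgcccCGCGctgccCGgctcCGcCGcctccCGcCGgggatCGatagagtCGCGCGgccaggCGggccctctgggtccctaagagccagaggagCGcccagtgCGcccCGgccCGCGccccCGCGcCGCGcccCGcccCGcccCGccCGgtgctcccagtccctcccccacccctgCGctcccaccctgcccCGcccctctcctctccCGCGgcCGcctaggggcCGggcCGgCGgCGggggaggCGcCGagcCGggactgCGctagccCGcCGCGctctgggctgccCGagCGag
LSAMP window: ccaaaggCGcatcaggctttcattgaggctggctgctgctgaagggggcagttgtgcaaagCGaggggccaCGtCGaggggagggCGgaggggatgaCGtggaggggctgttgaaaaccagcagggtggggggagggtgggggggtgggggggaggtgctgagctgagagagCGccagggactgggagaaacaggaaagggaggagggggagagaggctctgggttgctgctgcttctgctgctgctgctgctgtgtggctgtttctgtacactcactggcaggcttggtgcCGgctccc

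WNT5A was present in both EV libraries and higher in both PHF19_OE libraries. Its normalized counts were 57.8 and 242 in the EV libraries and 1031 and 1436 in the PHF19_OE libraries. The highest EV library was 4.27-fold under the lowest PHF19_OE library. Unlike for SLIT2, NSG2 and LSAMP, EV2 was the higher EV library, 4.18-fold above replicate 1 (95% interval 3.20 to 5.50), and 4.95% of the listed genes had so wide a gap in that direction. The means were 150 ± 130 in EV and 1233 ± 286 in PHF19_OE (SD, n = 2 each), 8.24-fold apart. With EV1 as the only control the fold was 21.3, and with EV2 it was 5.11. The gene (ENSG00000114251) lies on chromosome 3 (55465715 to 55490539, minus strand), and the authors' deposited adjusted p was 0.000330. Among the listed genes edgeR's quasi-likelihood test gave WNT5A an adjusted p of 0.0608 and DESeq2 one of 0.00144. As these genes were selected on this contrast, neither value is a separate check of the authors' call. RefSeq places its promoter windows, of 21 and 22 CG pairs, in the same range as each other, with 39.5% and 37.7% of windows reaching as many.

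The paralogs NSG1 and NSG2 went in opposite directions. NSG1 had 0 reads in both EV libraries and 389 and 579 in the PHF19_OE libraries, which are normalized counts of 467 and 593. Both EV libraries were at 0 and both PHF19_OE libraries were high. On pooled counts, with 3 counts over the EV group as the floor, NSG1 was at least 408-fold higher in PHF19_OE. Its log2 fold change in the authors' deposited table ranked 2 among the 448 higher genes, at an adjusted p of 2.44e-11. NSG2 had normalized counts of 737 and 33.2 in the EV libraries and 34.8 and 16.4 in the PHF19_OE libraries. Only EV1 was high, and EV2 lay between the PHF19_OE libraries, so the groups overlapped.

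The NSG2 mean was 385 ± 497 in EV and 25.6 ± 13.1 in PHF19_OE (SD, n = 2 each), 15.0-fold apart. The fold was 28.8 with EV1 as the only control and 1.30 with EV2. On pooled PHF19_OE counts EV2 was 1.34-fold higher, with a 95% interval of 0.830 to 2.13 that includes equality. Between the EV libraries NSG2 differed 22.2-fold (15.7 to 32.2), and 3.73% of the listed genes had so wide a gap in that direction. The authors' deposited adjusted p for NSG2 was 0.0137. Among the listed genes edgeR's quasi-likelihood test gave an adjusted p of 0.0994 and DESeq2 one of 0.00696.

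Per length, NSG2 was the only paralog counted in EV cells and NSG1 the main one in PHF19_OE cells. NSG2 stood at 6.68 FPKM in EV1 and at 0.292 in EV2, at least 342-fold and at least 12.5-fold above NSG1 against a floor of 3 counts in the library. In PHF19_OE replicate 1 NSG1 stood at 3.75 and NSG2 at 0.308 FPKM, 12.2-fold apart (95% interval 8.33 to 18.4). In PHF19_OE replicate 2 the levels were 4.72 and 0.144 FPKM, 32.8-fold apart (20.0 to 57.8). NSG1 made up 92.4% and 97.0% of the summed level of the pair in the PHF19_OE libraries. That sum was 6.68 and 0.292 FPKM in the EV libraries and 4.06 and 4.87 FPKM in the PHF19_OE libraries, so that EV1, with NSG2 alone, held the highest sum of the 4.

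The paralogs share no long stretch of coding sequence. Their longest annotated coding sequences, 555 bases for NSG1 and 513 for NSG2, were identical at 66.1% of 507 aligned bases, and the longest identical stretch was 15 bases. None of the 50-base words of ROBO2, SLIT2, GPC1, WNT5A or NSG2 transcripts occurred in transcripts of another gene on either strand. Of the NSG1 words 2.14% did, and NSG1 shares 91 exon bases with STX18 on the opposite strand, the sole exon overlap of the 7 genes with another annotated gene. Of the LSAMP words 0.174% did. The deposited files do not say whether counting used strand, so reads from that overlap cannot be assigned. NSG1 (ENSG00000168824, chromosome 4, 4348140 to 4419058, plus strand) has 2 RefSeq promoter windows. Window 1 (chr4:4386282-4386581, plus strand) holds 24 CG pairs, which 33.9% of windows reach. Window 2 (chr4:4386852-4387151, plus strand) holds 41 pairs, which 6.69% of windows reach. Only window 2, the richer in CG pairs, is shown, and which start was used is not known. NSG2 (ENSG00000170091) lies on chromosome 5 (174045604 to 174243501, plus strand).
NSG1 window 2: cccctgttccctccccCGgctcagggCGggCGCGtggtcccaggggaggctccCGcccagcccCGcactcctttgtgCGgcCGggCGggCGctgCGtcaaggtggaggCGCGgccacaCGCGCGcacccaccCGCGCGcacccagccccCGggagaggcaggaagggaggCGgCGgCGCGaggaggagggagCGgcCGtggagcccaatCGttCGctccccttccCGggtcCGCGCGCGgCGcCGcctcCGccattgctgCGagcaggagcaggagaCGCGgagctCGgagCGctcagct

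**Figure D3:**
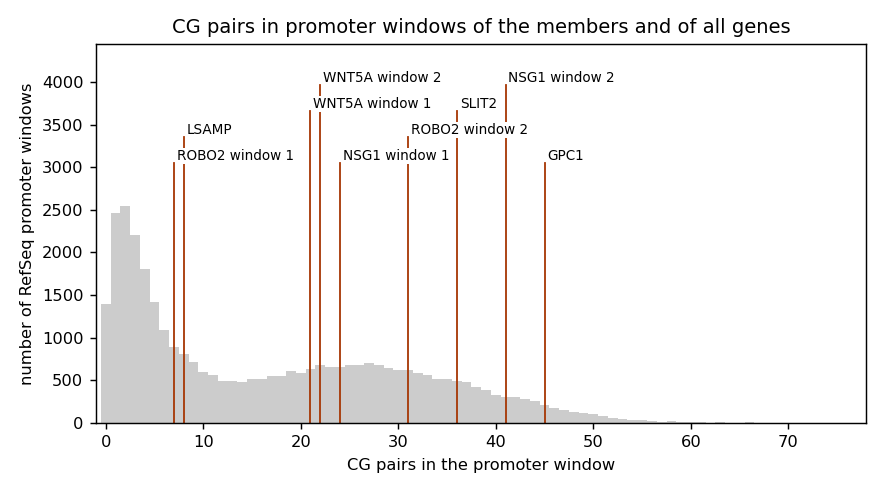
Number of RefSeq promoter windows (vertical, from 0) by the number of CG pairs each holds (horizontal), over all 35116 windows, with vertical lines of arbitrary height at the 9 windows of 6 of the genes. The lines run from 7 pairs for ROBO2 window 1 to 45 for GPC1, on both sides of the median of 14.

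The order of the 7 levels per length differed between the groups. In PHF19_OE the mean level was 8.37 ± 2.29 FPKM for LSAMP, 5.80 ± 1.32 for WNT5A, 5.08 ± 0.00377 for GPC1 and 4.23 ± 0.689 for NSG1 (SD, n = 2 each). ROBO2 followed at 0.588 ± 0.138, SLIT2 at 0.288 ± 0.0815 and NSG2 at 0.226 ± 0.116 (SD, n = 2 each). Across the PHF19_OE libraries the values of WNT5A and GPC1 overlapped, as did those of SLIT2 and NSG2. Within each library LSAMP was above WNT5A, at 6.75 against 4.87 FPKM in replicate 1 and 9.98 against 6.74 in replicate 2. SLIT2 was likewise above NSG2 in each, at 0.346 against 0.308 and 0.230 against 0.144 FPKM. In EV1 NSG2 and SLIT2 were the 2 highest, and GPC1, LSAMP and WNT5A lay close together, from 0.280 to 0.331 FPKM. In EV2 WNT5A was highest at 1.13 FPKM and LSAMP stood at 0.0723 FPKM. The deposited gene lengths equal the summed annotated exons of all transcripts of each gene, so FPKM understates a gene of which only a short transcript is made.

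**Figure D4:**
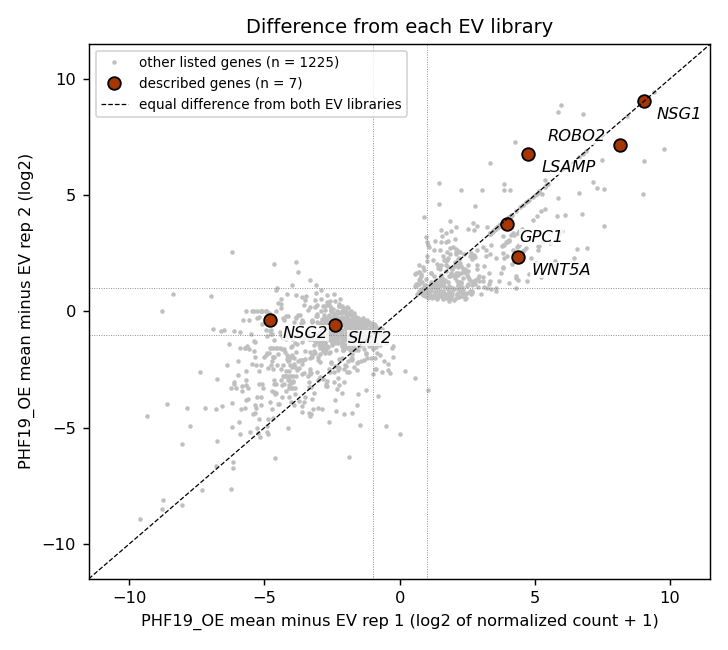
Difference of the PHF19_OE mean from EV1 (horizontal) and from EV2 (vertical), both in log2 of the normalized count plus 1, for the 7 genes and the other listed genes; the dashed line marks equal differences and dotted lines a 2-fold change. GPC1 and NSG1 lie near the dashed line, while NSG2 is at -4.79 against EV1 and -0.36 against EV2, and SLIT2 at -2.40 and -0.58.

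Set against each EV library singly, the 5 higher genes stood over 2-fold apart from both. With 1 added to each normalized count, which shrinks changes of genes with few reads, the log2 difference of LSAMP was 4.77 from EV1 and 6.79 from EV2. For WNT5A it was 4.39 and 2.35. All 7 genes were over 2-fold from EV1 and 5 from EV2, NSG2 and SLIT2 being the exceptions. This count was added after the values were seen, on genes selected on this contrast. The same share over all listed genes was not counted, so nothing particular to the 7 genes is read from it.

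The genes nearest in pattern were taken as the 3 coding genes of the table at the shortest Euclidean distance over the 4 values of log2(normalized count + 1). NSG1 lay nearest to ARHGAP15 (distance 0.63), OAS3 (0.92) and ROBO2 (1.73). ROBO2 lay nearest to OAS3 (1.11), S100A4 (1.62) and NSG1. All of these had at most 2 reads in each EV library. LSAMP had GPC1 as its nearest gene, at the wide distance of 2.61, and GPC1 lay nearest to THEMIS (1.22). WNT5A was nearest to IL27RA (0.64), whose normalized counts were 87.9 and 219 in EV and 1169 and 1365 in PHF19_OE. SLIT2 was close to ZMAT1 (0.17), RHOBTB3 (0.22) and RNF207 (0.31), and NSG2 to TTLL1 (1.02), BEX4 (1.07) and CTNNA2 (1.11), all of them highest in EV1. With 4 libraries, such likeness says little more than which libraries are high.

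Listed genes within 500 kb of the 7 genes were few, 5 in all beside 4 of them. ERC2-IT1, an intronic transcript of ERC2 that lies 167 kb from WNT5A on the same strand, rose from 9.51 and 9.78 in the EV libraries to 201 and 156 in the PHF19_OE libraries (authors' deposited adjusted p 6.63e-07). At 438 kb from GPC1, CROCC2, a gene related to the ciliary rootlet gene CROCC, fell from 52.3 and 16.6 to 0 in both, in the direction opposite to GPC1 (authors' deposited adjusted p 0.0225), and AC104809.2, a transcript inside CROCC2 on the other strand whose reads may not be separable from it, fell from 38.8 and 16.6 to 0 in both (authors' deposited adjusted p 0.0482). UNC93B3 near ROBO2 and MSX1 near NSG1 were listed without passing 0.05. SLIT2, LSAMP and NSG2 had no listed neighbour in that distance.

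Other genes of these pathways were counted in 7 lists, which beside the 7 genes hold 291. Of the 291, 34 were in the table and 9 passed an adjusted p of 0.05 there, 3 higher and 6 lower. That is 3.09% of the 291, beside 1.74% of all genes behind the adjustment, and nothing particular to the lists is read from it. The median deposited log2 fold change of the 34 was -1.40, and that of all listed genes -1.33. Genes outside the table did not reach an unadjusted p of 0.05 or were not tested, and their levels are not analysed here. In 17 of the 34, 15 of them lower genes, EV1 was over 2-fold above EV2. All 9 called genes were over 2-fold apart from each EV library taken singly. They were selected on this contrast, and the share among all called genes was not counted. For PRPH the difference from EV2 rests on 4 reads there against 0 in PHF19_OE.

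Among other axon guidance genes, the netrin receptor gene DCC and the plexin gene PLXNB2 rose and the semaphorin gene SEMA5A fell. DCC had normalized counts of 1.58 and 1.96 in EV and of 97.3 and 98.2 in PHF19_OE, a ratio of pooled counts of 55.9 (95% interval 21.4 to 207). PLXNB2, a semaphorin receptor, rose 4.27-fold, from 1063 ± 36.0 to 4544 ± 335 (SD, n = 2 each). SEMA5A stood at 810 and 93.9 in EV and at 28.8 and 23.5 in PHF19_OE, 17.2-fold lower (30.9-fold from EV1 alone, 3.58-fold from EV2 alone). Of 68 netrin, semaphorin, plexin and ephrin genes 6 were listed, 3 higher and 3 lower. Of the 6, DCC, PLXNB2 and SEMA5A passed. The semaphorin gene SEMA3G was higher without passing, at 111 and 295 in EV and 578 and 682 in PHF19_OE. In the SLIT-ROBO list of 16, ROBO2 and SLIT2 were the only listed genes, so that ROBO1, ROBO3, ROBO4, SLIT1 and SLIT3 were outside the table.

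The ligand gene WNT9A rose with WNT5A, and the WNT antagonist DKK1 fell. Of 73 WNT ligands, receptors and modulators 9 were listed and 3 passed, WNT5A among them. WNT9A had normalized counts of 7.13 and 0 in EV and of 148 and 164 in PHF19_OE, a ratio of pooled counts of 39.7 (95% interval 20.6 to 87.7). The fold was 21.9 from EV1 alone and at least 53.3 from EV2 alone, which had no reads. DKK1, a secreted inhibitor of WNT coreceptors, fell 8.83-fold, from 104 ± 31.7 to 11.7 ± 2.11 (SD, n = 2 each). The receptor gene FZD7 (1042 and 346 in EV, 242 and 136 in PHF19_OE) and the target gene AXIN2 (920 and 266 in EV, 268 and 180 in PHF19_OE) were listed and lower without passing, and both were highest in EV1, as was WNT11. Higher without passing were the cadherin receptor gene CELSR2 (242 and 324 in EV, 494 and 553 in PHF19_OE), DAAM2 and WNT4, the last at 0 in EV and at 19.2 and 4.09 in PHF19_OE. In all, 5 of the 9 listed genes of this list were higher and 4 lower. The WNT5A receptor genes ROR1, ROR2 and RYK were outside the table.

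Among heparan sulfate, adhesion and synaptic genes, SULF2, CNTN1 and SYT1 fell while GPC1, LSAMP and NSG1 were higher. SULF2, an enzyme that trims sulfate from heparan sulfate outside the cell, fell 2.47-fold, from 10404 ± 579 to 4206 ± 792 (SD, n = 2 each), and passed with GPC1 out of 5 listed among 34 glypicans, syndecans and heparan sulfate enzymes. The second listed glypican, GPC4, stood at 1813 and 850 in EV and at 601 and 550 in PHF19_OE and did not pass. Of 34 neural adhesion genes 6 were listed, 3 higher and 3 lower, and, beside LSAMP, CNTN1 passed. The abundant adhesion gene CADM1 was higher without passing, at 7080 and 7797 in EV and 17953 and 14843 in PHF19_OE. CNTN1, a contactin, stood at 1257 and 338 in EV and at 172 and 131 in PHF19_OE, 5.27-fold lower (8.30-fold from EV1 alone, 2.23-fold from EV2 alone). SYT1, the calcium sensor of synaptic vesicles, stood at 747 and 304 in EV and at 121 and 81.9 in PHF19_OE, 5.17-fold lower (2.99-fold from EV2 alone), and passed beside the paralogs out of 7 listed among 30 NSG family and synaptic trafficking genes.

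**Figure D5:**
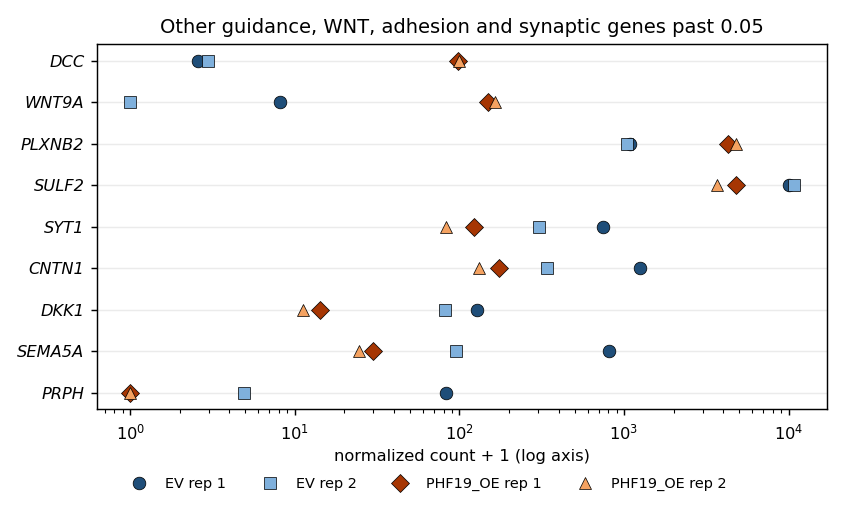
Normalized count plus 1 on a log axis (horizontal) of the 9 other pathway genes that passed 0.05 after adjustment, by the authors' deposited table (vertical), 1 point for each of the 2 EV and 2 PHF19_OE libraries. DCC, WNT9A and PLXNB2 are higher in both PHF19_OE libraries, and the 6 lower genes include SEMA5A, CNTN1, SYT1 and PRPH, for which EV1 is the highest point.

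Of 43 neuronal and neuroendocrine identity genes 6 were listed, 2 higher and 4 lower. The most abundant was the ubiquitin hydrolase gene UCHL1, at 4930 and 12806 in EV and 19384 and 16043 in PHF19_OE, which did not pass, and PAX6 stood at 0 in both EV libraries and at 2.40 and 21.5 in PHF19_OE without passing. With UCHL1 making up most of them, the summed normalized counts of the 6 were 6153 and 13156 in EV and 19655 and 16262 in PHF19_OE. The one gene that passed was the intermediate filament gene PRPH, which fell from 81.6 and 3.91 to 0 in both, at least 28.2-fold (at least 2.36-fold from EV2 alone). Of a shorter list of 10 neural cell markers only MAP2 was in the table, at 811 and 163 in EV and 178 and 99.3 in PHF19_OE. Summed normalized counts of the listed markers of T and NK cells (2 of 7) were 85.5 and 40.1 in EV and 2.40 and 5.12 in PHF19_OE. The myeloid marker ITGAM (1 of 5) stood at 94.3 and 15.6 in EV and at 0 in PHF19_OE, and none of 9 stromal and endothelial markers was in the table. The part of these marker levels in the values of the 7 genes was not tested.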

How the data were processed

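RNA of AMO1 cells was extracted with a column kit and made into libraries with a SMARTER mRNA-Seq kit, per the labels' protocols. The submitters' processing notes name build hg38; the aligner, the counter and whether strand was used were not given in the sources used here. Per the file headers, the authors deposited raw read counts, normalized values (a signal, the count over 1 factor per library), FPKM, log2 fold changes and p-values with and without adjustment. Adjusting over 16881 genes returned 1208 of the deposited adjusted p-values (relative difference under 1e-06); 24 more are 1. Coordinates of all 1232 genes equal GENCODE 29, which gave transcripts and exons. Promoter windows are from RefSeq (GRCh38.p14) and matched 6 of the 7 genes.

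Counts were tested with edgeR 4.0.16 (quasi-likelihood test, filterByExpr, the authors' size factors, R 4.3.3) among the listed genes, with DESeq2 1.42.0 as an alternative. Both were tested on simulated counts with a common dispersion and changes placed at random. The listed genes were selected on this contrast, so the simulation does not show how the tests behave on them. As the table is limited to selected genes, calls in the text are those of the authors' adjusted p. Intervals of count ratios are exact 95% (Clopper-Pearson), and a floor is 3 counts. The 7 genes and all lists were chosen with earlier results of these data known. The lists hold 298 genes. Named genes are the 7, the listed pathway genes past 0.05, PHF19, neighbours within 500 kb and the 3 nearest in pattern; genes named without passing were chosen after their values were seen. No further per-sample columns were left out.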

Additional observations from a re-analysis of the deposited data

How the results depend on the processing

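Over 8 alternatives for each of the 7 genes (3 other scalings, a pseudocount of 5 and each library left out), none of 56 log2 differences changed sign, and 7 moved by more than the spread between replicates. For the 6 genes with fully separate groups, leaving out a library could not change the sign, so this is no check of direction. The spread was the larger within-group SD, so a wide EV gap widened the tolerance. SLIT2 thus counted as not moved at -0.58 without EV1. NSG2 ran from -4.79 to -0.36, SLIT2 from -2.40 to -0.58, WNT5A from 2.35 to 4.39 and ROBO2 from 5.70 to 8.14. In PHF19_OE the log2 ratio of ROBO2 to SLIT2 was 1.04 per length and 1.82 without division by length. EdgeR's quasi-likelihood test, adjusted over the 1066 listed genes tested, called 149, 77 of them higher. DESeq2 called 364, edgeR without a filter on low counts 55, and leaving out 1 library gave 28 to 1093. In those fits a lone library is assumed to vary like the other group. Adjusted over 16881 genes edgeR called 0 (522 at an unadjusted p under 0.05), 10 to 842 with 1 library left out, and DESeq2 131. Higher genes made up 51.7% of edgeR's calls with the authors' factors, 70.3% with TMM factors and 75.9% with DESeq2's size factors. In DESeq2 itself, with the authors' factors, they made up 35.7%. The TMM and DESeq2 factors moved the median log2 fold change from -1.24 to -0.36 and -0.22. Both were estimated from the listed genes alone, which were selected on this contrast and of which 63.6% were lower. They are not scalings over all genes. The labels share replicate numbers 1 and 2, and with the replicate block edgeR called 297 among the listed genes and 109 adjusted over 16881. The within-group differences of the same numbers correlated at 0.21 over 1232 genes, and with 2 pairs the numbers were not taken as a pairing. Ratios of gene pairs in EV have no value without one library where a gene has no reads. Depth limits ROBO2 and NSG1 in EV, where 0 or 1 read leaves only a bound.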
